A study of Homo sapiens with 12 samples.

Results

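The wild-type YTHDF1 and RNF2 peak lists of H1 human embryonic stem cells were compared, and every peak of both was a member: 44498 YTHDF1 peaks and 29310 RNF2 peaks, 73808 of the 117365 regions in the 4 lists of the series. The lists came from chromatin immunoprecipitation followed by sequencing (ChIP-seq), which maps where a protein sits on DNA. H1 is an established embryonic stem cell line. The wild-type cells were untreated and were grown in mTESR1 medium, and YTHDF1, RNF2 and input each had 2 libraries from biological replicates. A further YTHDF1 list came from H1 cells given a YTHDF1 shRNA and is used here only as a comparison value. The authors had merged the replicates of a group into 1 list, which leaves neither a replicate error nor a test between lists. Intervals are exact 95% intervals on counts (binomial for shares, Poisson for densities) and cover counting error only. Neighbouring peaks are not independent replicates. RNA was not measured here, so the cell type could not be checked against its marker genes.

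YTHDF1 is a cytoplasmic reader of N6-methyladenosine on messenger RNA and belongs to the YTH domain family. RNF2, also called RING1B, is the E3 ligase at the core of PRC1 (Polycomb repressive complex 1), which ubiquitinates histone H2A and silences developmental genes in embryonic stem cells. PRC1 is known both for narrow sites at CpG-rich promoters and for broad domains over developmental regulators such as the HOX clusters.

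The promoters below are examples of shared sites, chosen after their values were seen to cover the 4 classes of RNF2 width; they are not the strongest of all shared sites. They are windows from 250 bases before to 50 bases after a coding-gene start, from RefSeq (GRCh38.p14), written 5′ to 3′ on the gene's strand. Capitals mark 21 bases around the YTHDF1 summit, the base of the highest signal in a peak, which in all of them also lay inside an RNF2 peak. ACAP2 (chr3:195442971-195443270, minus strand), SRF (chr6:43171019-43171318, plus strand) and ZNF787 (chr19:56121246-56121545, minus strand) had RNF2 peaks of 1 to 3 kb, KMT2A (chr11:118436242-118436541, plus strand) and EGR4 (chr2:73293499-73293798, minus strand) of 3 to 10 kb, ZSCAN18 (chr19:58098182-58098481, minus strand) of under 1 kb and TBX1 (chr22:19756453-19756752, plus strand) of over 10 kb.
ACAP2: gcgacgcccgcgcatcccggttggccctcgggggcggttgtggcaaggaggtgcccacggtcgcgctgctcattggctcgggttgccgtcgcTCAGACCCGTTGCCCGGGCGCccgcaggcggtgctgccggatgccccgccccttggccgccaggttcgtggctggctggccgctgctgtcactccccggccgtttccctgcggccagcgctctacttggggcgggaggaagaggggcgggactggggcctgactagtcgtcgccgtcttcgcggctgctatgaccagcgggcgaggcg
SRF: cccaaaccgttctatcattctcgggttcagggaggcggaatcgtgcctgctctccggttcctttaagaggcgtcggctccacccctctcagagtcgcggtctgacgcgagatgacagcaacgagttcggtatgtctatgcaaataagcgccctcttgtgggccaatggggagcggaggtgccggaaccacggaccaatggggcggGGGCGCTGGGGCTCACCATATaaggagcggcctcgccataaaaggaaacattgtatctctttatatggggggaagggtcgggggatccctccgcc
ZNF787: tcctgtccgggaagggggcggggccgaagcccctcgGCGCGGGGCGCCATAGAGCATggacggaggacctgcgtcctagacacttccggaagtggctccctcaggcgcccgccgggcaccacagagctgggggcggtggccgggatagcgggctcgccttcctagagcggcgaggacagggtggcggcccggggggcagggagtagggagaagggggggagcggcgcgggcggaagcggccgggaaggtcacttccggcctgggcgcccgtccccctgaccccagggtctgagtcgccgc
KMT2A: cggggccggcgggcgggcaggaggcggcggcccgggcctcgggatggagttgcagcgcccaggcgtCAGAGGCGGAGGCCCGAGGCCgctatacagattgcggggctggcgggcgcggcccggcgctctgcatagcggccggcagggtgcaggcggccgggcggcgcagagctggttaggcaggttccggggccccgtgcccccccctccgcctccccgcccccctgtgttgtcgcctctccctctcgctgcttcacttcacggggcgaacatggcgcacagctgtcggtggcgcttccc
EGR4: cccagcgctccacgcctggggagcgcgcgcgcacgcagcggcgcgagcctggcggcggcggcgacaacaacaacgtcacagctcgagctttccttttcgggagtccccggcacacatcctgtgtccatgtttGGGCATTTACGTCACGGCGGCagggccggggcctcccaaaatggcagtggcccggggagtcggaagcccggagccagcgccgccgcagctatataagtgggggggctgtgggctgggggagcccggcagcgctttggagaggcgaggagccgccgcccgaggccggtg
ZSCAN18: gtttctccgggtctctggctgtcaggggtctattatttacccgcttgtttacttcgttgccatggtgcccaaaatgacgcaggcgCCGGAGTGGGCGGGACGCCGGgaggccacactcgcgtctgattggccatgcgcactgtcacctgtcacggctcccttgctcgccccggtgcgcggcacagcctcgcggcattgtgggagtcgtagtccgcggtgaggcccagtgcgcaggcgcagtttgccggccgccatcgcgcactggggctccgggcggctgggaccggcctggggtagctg
TBX1: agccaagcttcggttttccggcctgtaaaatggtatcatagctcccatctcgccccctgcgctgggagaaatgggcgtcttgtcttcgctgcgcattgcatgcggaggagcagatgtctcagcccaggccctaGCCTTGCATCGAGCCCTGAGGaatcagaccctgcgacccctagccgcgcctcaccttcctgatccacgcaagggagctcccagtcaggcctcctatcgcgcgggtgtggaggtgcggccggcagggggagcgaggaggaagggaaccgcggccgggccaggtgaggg
In the SRF promoter the YTHDF1 summit was base 216 of 300, and a search found a CArG box, the motif that the SRF protein itself is known to bind, at bases 221 to 230. That window held 2 CArG boxes, and none was found in the other promoters printed. Relative to the start, the summits lay at -148 bp (ACAP2), -35 bp (SRF), -204 bp (ZNF787), -174 bp (KMT2A), -108 bp (EGR4), -155 bp (ZSCAN18) and -107 bp (TBX1), all upstream. The windows reach only 50 bases past the start, so choosing summits inside them favours the upstream side. YTHDF1 fold enrichment, the authors' value of a peak over background, was 8.23, 5.47, 5.47, 4.87, 5.60, 4.02 and 3.92 in that order. The summit of the RNF2 peak was 5 bp from that of YTHDF1 at KMT2A and 2 bp at ZSCAN18, but 4897 bp away at TBX1.

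YTHDF1 summits fell inside RNF2 peaks in 5347 of 44498 cases (12.0%, interval 11.7 to 12.3%), and 4817 of 29310 RNF2 peaks (16.4%) held at least 1. Another 294 YTHDF1 peaks touched an RNF2 peak with their flank only. Of the 5347, 4353 (81.4%, 80.3 to 82.4%) lay wholly within the RNF2 peak, and in 2628 (49.1%, 47.8 to 50.5%) each summit was inside the other peak. Of the RNF2 peaks that held a summit, 4394 held exactly 1, 363 held 2, 39 held 3 and 21 held 4 or more, and all 21 of these were at least 10 kb wide. In the knockdown list, 114 of 226 YTHDF1 summits (50.4%, 43.7 to 57.1%) fell inside wild-type RNF2 peaks. All 226 had a −log10 q of at least 4, and at that minimum the wild-type share was 451 of 1062 (42.5%, 39.5 to 45.5%). The depth of both YTHDF1 lists was unknown.

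Wide RNF2 peaks held a YTHDF1 summit most often, but per kb they held the fewest. The share with a summit was 609 of 10540 (5.78%, 5.34 to 6.24%) among RNF2 peaks under 1 kb, 2642 of 13877 (19.0%, 18.4 to 19.7%) at 1 to 3 kb, 1197 of 4182 (28.6%, 27.3 to 30.02%) at 3 to 10 kb and 369 of 711 (51.9%, 48.2 to 55.6%) at 10 kb and over. The density was 0.0928 YTHDF1 summits per kb (0.0855 to 0.100) in the narrowest class and highest at 1 to 3 kb, with 0.114 (0.110 to 0.118). It was 0.0701 (0.0664 to 0.0739) at 3 to 10 kb and 0.0379 (0.0350 to 0.0410) at 10 kb and over. None of these density intervals overlapped. Among the better-scoring 50% of RNF2 peaks the densest class was instead that under 1 kb, with 0.173 per kb (0.150 to 0.199) against 0.130 (0.124 to 0.136) at 1 to 3 kb, and 10 kb and over again had the lowest. The class of 1 to 3 kb made up 36.3% of the RNF2-covered sequence and carried 51.4% of the summits, whereas the class of 10 kb and over made up 24.2% of the sequence and carried 11.4%.

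The density at 1 to 3 kb was 3.002 times that at 10 kb and over (interval 2.75 to 3.28), and it was the higher of the pair on all 22 autosomes. The class of 10 kb and over was the least dense of the 4 on 21 of the 22, and that of 1 to 3 kb the densest on 18. RNF2 signal ran the other way: the median RNF2 fold enrichment was 3.13 under 1 kb, 4.08 at 1 to 3 kb, 6.82 at 3 to 10 kb and 30.02 at 10 kb and over. The YTHDF1 peaks themselves had a median fold enrichment of 2.95, 2.95, 2.95 and 2.94 in the 4 classes.

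**Figure D1:**
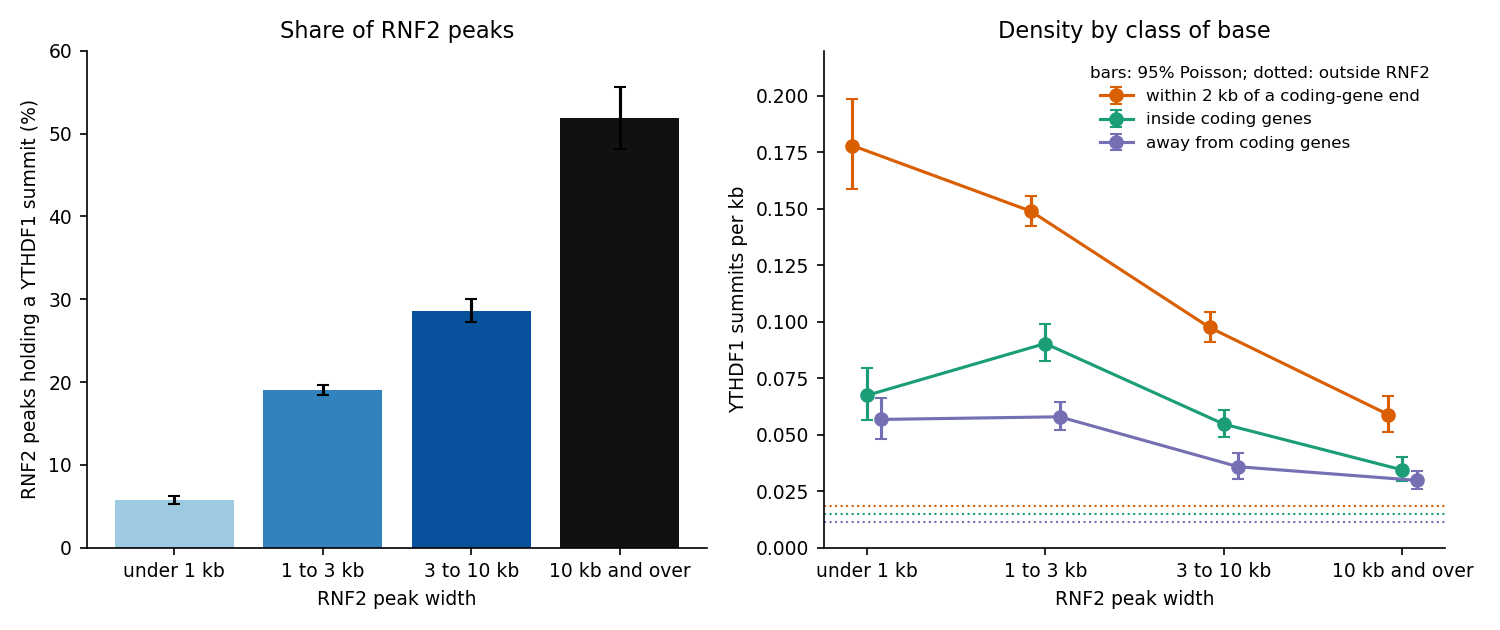
Left, share of RNF2 peaks holding at least 1 YTHDF1 summit (%) by RNF2 peak width, with exact 95% intervals; the share goes from 5.78% to 51.9%. Right, YTHDF1 summits per kb of RNF2 peak by width and by class of base, with 95% Poisson intervals and dotted lines for the same class of base outside RNF2 peaks; the points at 10 kb and over are the lowest of each class of base.

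Within a width class, RNF2 strength and YTHDF1 moved together only in part. When the RNF2 peaks of 1 to 3 kb were divided into 4 equal groups by fold enrichment, the density was 0.0790, 0.107, 0.128 and 0.132 YTHDF1 summits per kb from the weakest to the strongest. Under 1 kb the strongest group had 0.142 per kb against 0.0584 to 0.0796 in the others. At 3 to 10 kb the values were 0.0636, 0.0815, 0.0767 and 0.0608, with the strongest group the lowest. At 10 kb and over the 4 groups had 0.0348, 0.0403, 0.0421 and 0.0355, with overlapping intervals, although the median RNF2 fold enrichment went from 11.6 to 79.0.

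YTHDF1 summits lay toward the middle of RNF2 peaks, most clearly at 1 to 3 kb. Of all 5347 summits, 1543 (28.9%, 27.6 to 30.1%) fell in the middle 20% of the RNF2 peak and 488 (9.13%, 8.37 to 9.93%) in the outer 20%, that is the first and the last 10% together. An even spread would put 20% in each. The middle held 26.7% (23.2 to 30.4%) of summits under 1 kb, 31.1% (29.4 to 32.9%) at 1 to 3 kb, 27.0% (24.7 to 29.4%) at 3 to 10 kb and 24.96% (21.6 to 28.6%) at 10 kb and over. The outer 20% held 11.3%, 6.80%, 9.94% and 15.6% in the same order. RNF2 summits were more central still, with 40.7%, 37.6%, 36.9% and 42.8% in the middle 20% among RNF2 peaks that held a YTHDF1 summit.

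**Figure D2:**
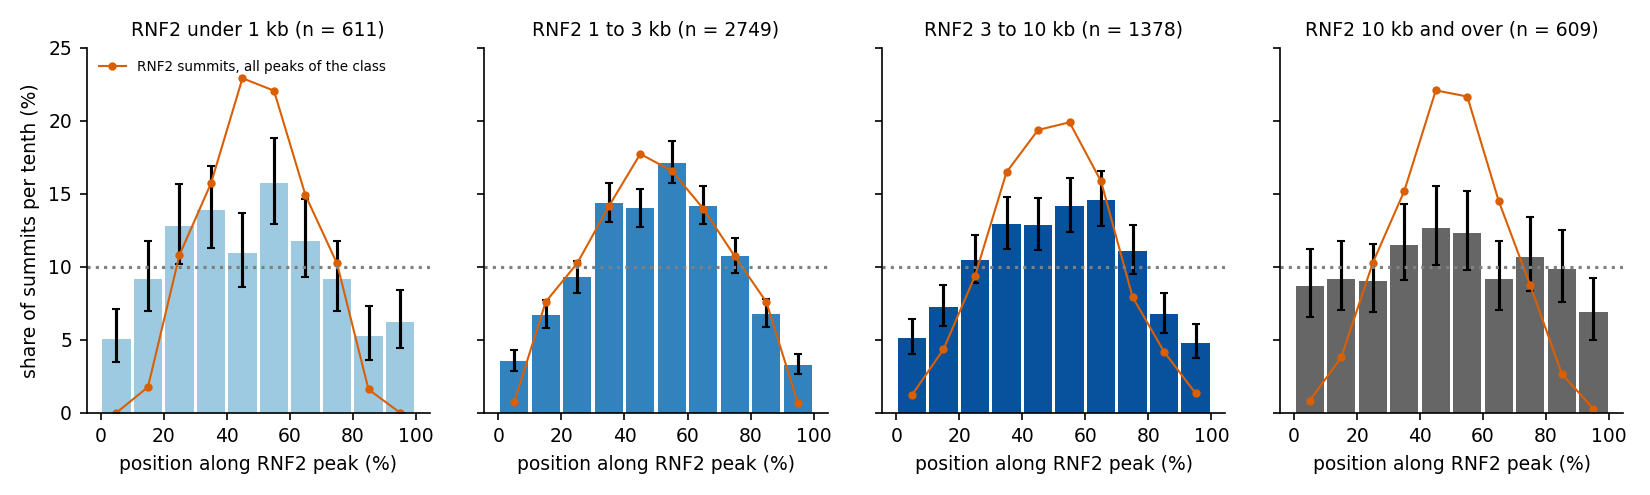
Share of YTHDF1 summits (bars, %, exact 95% intervals) in each 10% of the RNF2 peak from its lower to its higher coordinate, for 4 classes of RNF2 width. The line gives the share of RNF2 summits over all peaks of the class and the dotted line the 10% of an even spread; bars are flattest at 10 kb and over, where the middle 20% held 24.96%.

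The median distance between a YTHDF1 summit and the summit of the RNF2 peak that held it was 337 bp, with quartiles of 127 and 901.5 bp. It was 127 bp under 1 kb, 245 bp at 1 to 3 kb, 717.5 bp at 3 to 10 kb and 5272 bp at 10 kb and over, and distances of this kind grow with peak width by geometry. The density per kb at a given distance takes width out. In RNF2 peaks of 1 to 3 kb it was 0.245 summits per kb (0.227 to 0.264) within 100 bp of the RNF2 summit and 0.0642 (0.0587 to 0.0701) between 500 and 1000 bp. At 3 to 10 kb the values were 0.195 (0.166 to 0.227) and 0.0775 (0.0691 to 0.0867). At 10 kb and over they were 0.0636 (0.0291 to 0.121) and 0.0465 (0.0320 to 0.0653), with overlapping intervals, and 0.0329 (0.0280 to 0.0384) beyond 10 kb. In RNF2 peaks of that width the density was lower in each distance range further from the RNF2 summit. It was 0.0426 (0.0325 to 0.0548) between 1000 and 2000 bp and 0.0365 (0.0310 to 0.0426) between 5000 and 10000 bp. The interval of each range overlapped that beyond 10 kb, and ranges were not pooled. The narrower peaks thus had a crest of YTHDF1 at the RNF2 summit. In the domains of 10 kb and over the fall was shallower, and at 9 summits within 100 bp no separate crest was resolved.

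Neither side of the RNF2 summit was favoured along the chromosome. Leaving out 5 pairs on the same base, 2710 YTHDF1 summits lay at a higher coordinate and 2632 at a lower one (50.7%, 49.4 to 52.1%). Beyond the edge of the RNF2 peak the density fell, and stayed between 0.0171 and 0.0212 per kb out to 50 kb. It was 0.0413 per kb (0.0362 to 0.0468) in the last 100 bp inside the edge, 0.0212 (0.0189 to 0.0238) in the first 250 bp outside, 0.0190 (0.0178 to 0.0203) at 1 to 2 kb and 0.0171 (0.0168 to 0.0174) at 10 to 50 kb. Where several YTHDF1 summits shared an RNF2 peak, neighbours were a median of 871 bp apart at 1 to 3 kb, 1381 bp at 3 to 10 kb and 6081.5 bp at 10 kb and over, and never closer than 403 bp.

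**Figure D3:**
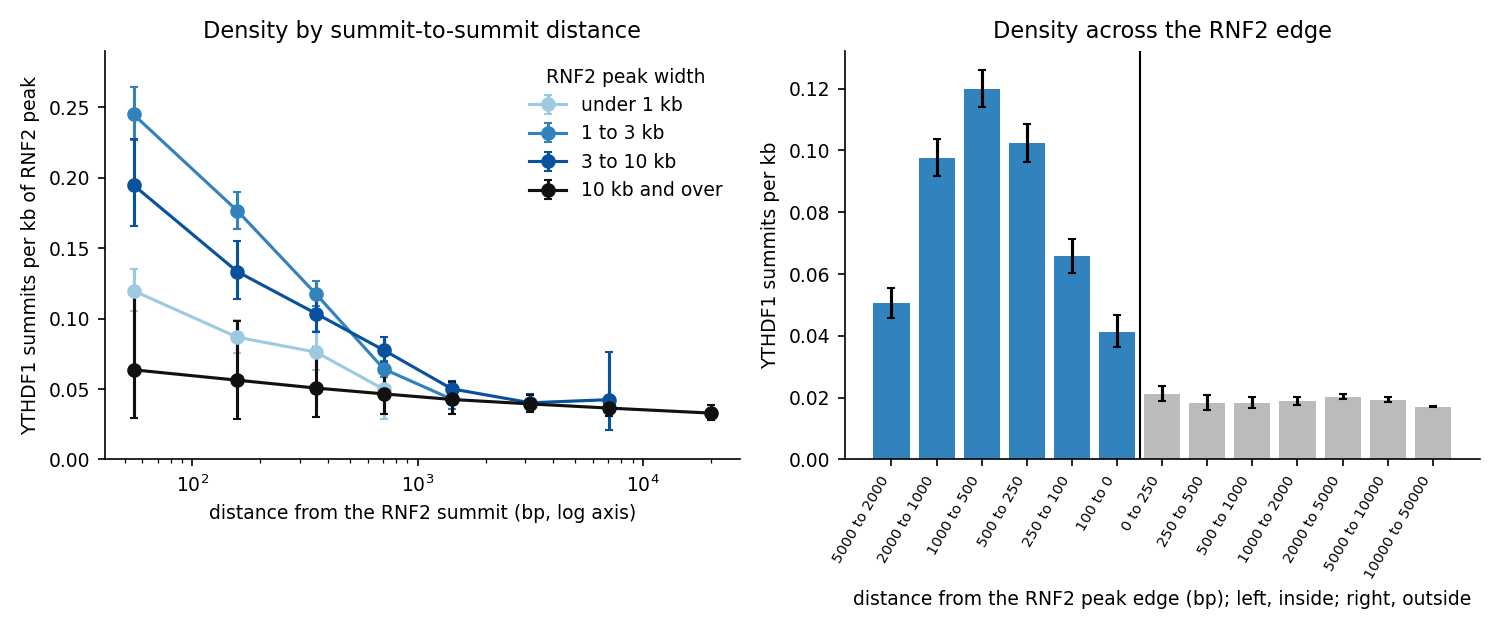
Left, YTHDF1 summits per kb of RNF2 peak against the distance to the RNF2 summit (bp, log axis) for 4 classes of RNF2 width, points with at least 5 summits, with 95% Poisson intervals; at 1 to 3 kb the density goes from 0.245 to 0.0428. Right, the same density across the edge of all RNF2 peaks, inside in blue and outside in grey, where it steps from 0.0413 to 0.0212.

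Position to coding genes was described in 3 classes of base: within 2 kb of either end of a coding gene, elsewhere inside coding genes, and away from both. Bases near gene ends made up 41.3% of RNF2-covered sequence and held 3344 of the 5347 summits (62.5%, 61.2 to 63.8%). YTHDF1 density in RNF2 peaks was 0.122 per kb (0.118 to 0.126) there, 0.0613 (0.0577 to 0.0650) inside genes and 0.0427 (0.0400 to 0.0456) away from them. Outside RNF2 peaks the same classes had 0.0187, 0.0149 and 0.0113 per kb, so the density in RNF2 was 6.52, 4.10 and 3.79 times higher. The last value counts assembly gaps among the bases outside RNF2. Of YTHDF1 summits near gene ends, 61.8% (60.5 to 63.1%) were in an RNF2 peak, against 6.002% inside genes and 4.33% away. These shares go with how much of each class RNF2 peaks covered. That was 19.9% of the bases near gene ends, 1.53% inside genes and 1.18% away, the last again counting assembly gaps.

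From 1 to 3 kb upward, the density fell with RNF2 width in every class of base. Near gene ends the density went from 0.178 per kb under 1 kb through 0.149 and 0.0975 to 0.0590 at 10 kb and over. Inside genes it was 0.0675, 0.0904, 0.0548 and 0.0345, and away from genes 0.0568, 0.0580, 0.0359 and 0.0299. The crest at the RNF2 summit was present in each class as well. Among RNF2 peaks of 1 to 3 kb it was 0.320 per kb within 100 bp for peaks with the summit near a gene end, 0.209 inside genes and 0.122 away, against 0.0801, 0.0604 and 0.0305 between 500 and 1000 bp.

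YTHDF1 summits in RNF2 were densest right at gene starts. The promoter table gave 22183 starts for 15843 of the 20037 coding genes, and the others were not used here. RNF2 peaks that covered such a start held a YTHDF1 summit in 2741 of 9795 cases (28.0%, 27.1 to 28.9%), against 2076 of 19515 (10.6%, 10.2 to 11.1%) of the rest. Inside RNF2 the density was 0.267 per kb (0.254 to 0.280) within 250 bp of a start and 0.0434 (0.0382 to 0.0491) at 1 to 2 kb. Outside RNF2 it was 0.0578 (0.0508 to 0.0656) and 0.0147. Within 250 bp of a gene's other end, away from any start, it was 0.0785 (0.0503 to 0.117) inside RNF2 and 0.0107 outside. Over the whole 2 kb the ends of a gene were less unlike, with 0.126 (0.122 to 0.131) around starts and 0.100 (0.0878 to 0.114) around the other end, both inside RNF2. Their profiles differed, since the density did not fall away from the other end. At 1 to 2 kb from it the density inside RNF2 was 0.106 (0.0881 to 0.127). Density near starts also fell with RNF2 width, from 0.309 per kb under 1 kb and 0.288 at 1 to 3 kb to 0.222 at 3 to 10 kb and 0.136 (0.0982 to 0.183) at 10 kb and over.

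Along the direction of transcription the summits straddled the start. For 2738 YTHDF1 summits within 2 kb of a start in the same RNF2 peak, the median position was 28 bp, downstream of the start, with quartiles at -196 and 228 bp, and 53.8% (51.9 to 55.7%) were downstream. The pairs were chosen by the YTHDF1 summit, and the RNF2 summit was not held to 2 kb. The RNF2 summits of the same pairs had a median of -16 bp and were downstream in 47.5%. This order did not hold in every width class. At 10 kb and over, RNF2 summits had a median of 1226 bp with 62.2% downstream, against 77 bp and 53.1% for YTHDF1. At 3 to 10 kb the medians were 30.5 bp for RNF2 and 26.5 bp for YTHDF1. Within 250 bp of the start lay 1564 (57.1%, 55.2 to 59.0%) of these YTHDF1 summits: 87.2% under 1 kb, 61.3% at 1 to 3 kb, 43.4% at 3 to 10 kb and 30.1% at 10 kb and over.

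**Figure D4:**
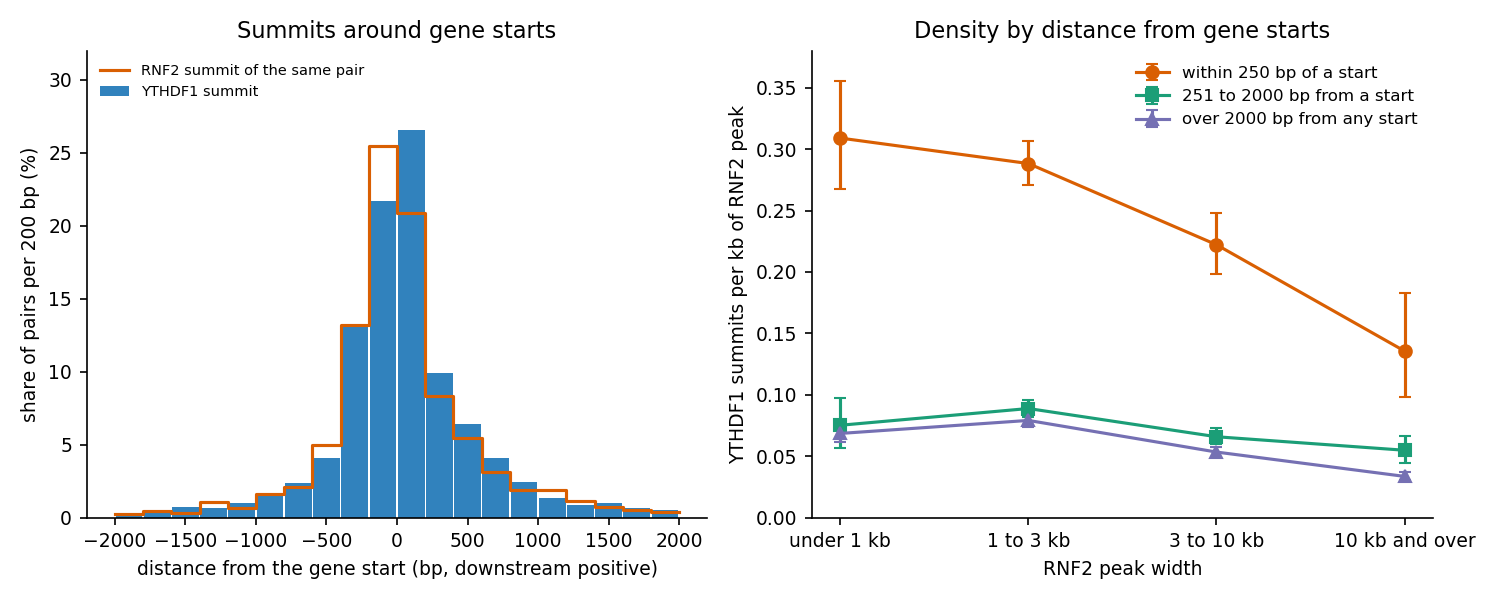
Left, share (%) of 2738 pairs per 200 bp around the coding-gene start, with YTHDF1 summits as bars and the RNF2 summits of the same pairs as a line; pairs were chosen by a YTHDF1 summit within 2 kb, and 53.8% of the YTHDF1 summits lay downstream. Right, YTHDF1 summits per kb of RNF2 peak by RNF2 width and distance from a start, with 95% Poisson intervals; within 250 bp the density goes from 0.309 to 0.136.

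Promoters that carried both features were rich in CG dinucleotides. Of the sequences printed above, ACAP2, KMT2A, EGR4, ZNF787 and ZSCAN18 held 37, 36, 35, 32 and 31 CG, but SRF held 23 and TBX1 22, near the median of 21 over all windows. The 300-base windows with the start in an RNF2 peak and a YTHDF1 summit in the window numbered 1054 and held a median of 31 CG (quartiles 25 and 38) at 70.0% G and C. The 12395 windows with RNF2 alone held 27 (20 and 35), the 149 with YTHDF1 alone 17 (7 and 24) and the 8585 with neither 5 (2 and 13). RNF2 alone means a start in RNF2 without a YTHDF1 summit in the 300 bases. The RNF2 peak could still hold a summit elsewhere: of 13449 starts in RNF2, 3937 were in a peak with a YTHDF1 summit. The higher count beside RNF2 alone was seen in each width class, with 27 against 23 CG under 1 kb, 32 against 28, 34 against 29, and 32.5 against 23 at 10 kb and over. Base composition moved with the shared sites, and its part in the result was not tested.

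Short motifs were counted on both strands of the same windows. The hexamer CCGCCC, the core of a GC box, was in 85.7% (83.4 to 87.7%) of windows with both features, 74.2% with RNF2 alone and 56.3% of all. TATAAA was in 2.94% (2.01 to 4.15%), 4.75% and 9.47%. GGACT, the DNA form of the commonest N6-methyladenosine context, was in 45.9% (42.9 to 49.0%), 45.6% and 45.3%. Most of each window lies before the start and both strands were counted, so these shares cannot bear on methylated RNA. The CArG box found at SRF was in 10 of the 1054 windows (0.949%, 0.456 to 1.74%) and 1.25% of all. GCGTGGGCG, the motif known for EGR proteins, was in 23 (2.18%, 1.39 to 3.26%), 1.47% and 1.04%. It ends in GGGCG, which begins the reverse complement of CCGCCC, so one match can overlap the other. A match is a description of letters, not of a bound site.

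Stronger YTHDF1 peaks were inside RNF2 more often and, over all RNF2 peaks, nearer to its summit. With a −log10 q from 1.5 to 2, 2519 of 27793 peaks (9.06%, 8.73 to 9.41%) had the summit in RNF2, at a median of 398 bp from the RNF2 summit. From 2 to 3 the share was 13.6% at 326.5 bp, from 3 to 4 it was 24.1% at 268 bp, and at 4 and over it was 42.5% at 231 bp. Within width classes, the median distance at 4 and over against that of all summits was 64.5 against 127 bp under 1 kb, 172 against 245 bp at 1 to 3 kb, 674 against 717.5 bp at 3 to 10 kb, and 5709 against 5272 bp at 10 kb and over. Median YTHDF1 peak width went up as well, from 390 bp in the weakest class to 554.5 bp in the strongest. Of the summits in RNF2, the share in domains of 10 kb and over was 13.3% in the weakest class and 6.65% in the strongest, and the share at 1 to 3 kb was 47.4% and 59.2%. The median fold enrichment was 2.95 inside RNF2 (quartiles 2.81 and 3.23) and 2.88 outside (2.80 and 3.08). Values in the YTHDF1 list were coarse: 6828 peaks carried the same fold enrichment of 2.81.

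The 8 RNF2 peaks with the most YTHDF1 summits were all broad domains, and 6 of them are described here. Of 6 RNF2 peaks tied at 5 summits, 2 were among these 8. The RNF2 peak over HOXC13 to HOXC4, homeobox genes of body patterning, lay on chromosome 12 (53910653 to 54091779, hg38). It was 181.1 kb wide and held 9 YTHDF1 summits with fold enrichments from 2.70 to 3.09. The RNF2 peak from EVX2 to HOXD1 (chromosome 2, 176060696 to 176202508, 141.8 kb) held 6, with fold enrichments from 2.55 to 3.08. Per kb these domains had 0.0497 and 0.0423 YTHDF1 summits.

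Other such domains lay over transcription factor genes. The RNF2 peak over NFIX, a nuclear factor I transcription factor (chromosome 19, 56.3 kb), and that over ZIC5 and ZIC2, zinc-finger factors of neural development (chromosome 13, 51.1 kb), held 6 YTHDF1 summits each. HOXB1 to HOXB9 (141.1 kb) held 5. A 69.8 kb domain on chromosome 15 (89353188 to 89423026) overlapped no coding gene and held 5. RHCG was the coding gene nearest to its RNF2 summit, at 65064 bp. POLG was nearest to the YTHDF1 summit that lay 5.63 kb from the domain's start, at 23997 bp. Per kb, the domain of NFIX had 0.107 YTHDF1 summits, that of ZIC5 and ZIC2 0.117, HOXB 0.0354 and the chromosome 15 domain 0.0716. All RNF2 peaks of 10 kb and over had 0.0379, and these domains were chosen by their number of summits. The RNF2 fold enrichments of the 6 domains ran from 57.2 at ZIC5 and ZIC2 to 110.9 at HOXB.

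Domains of similar size could hold none. Among the 4 widest RNF2 peaks without a YTHDF1 summit were those over SCRG1 and HAND2, the latter a transcription factor of heart and limb (chromosome 4, 57.0 kb, 79.7-fold), over the ligand genes WNT6 and WNT10A (chromosome 2, 51.7 kb, 42.9-fold) and over VAX1, a forebrain homeobox gene (chromosome 10, 50.4 kb, 86.4-fold). In RNF2 fold enrichment these lay in the same range as the domains with 5 to 9 summits, except for that of WNT6 and WNT10A.

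**Figure D5:**
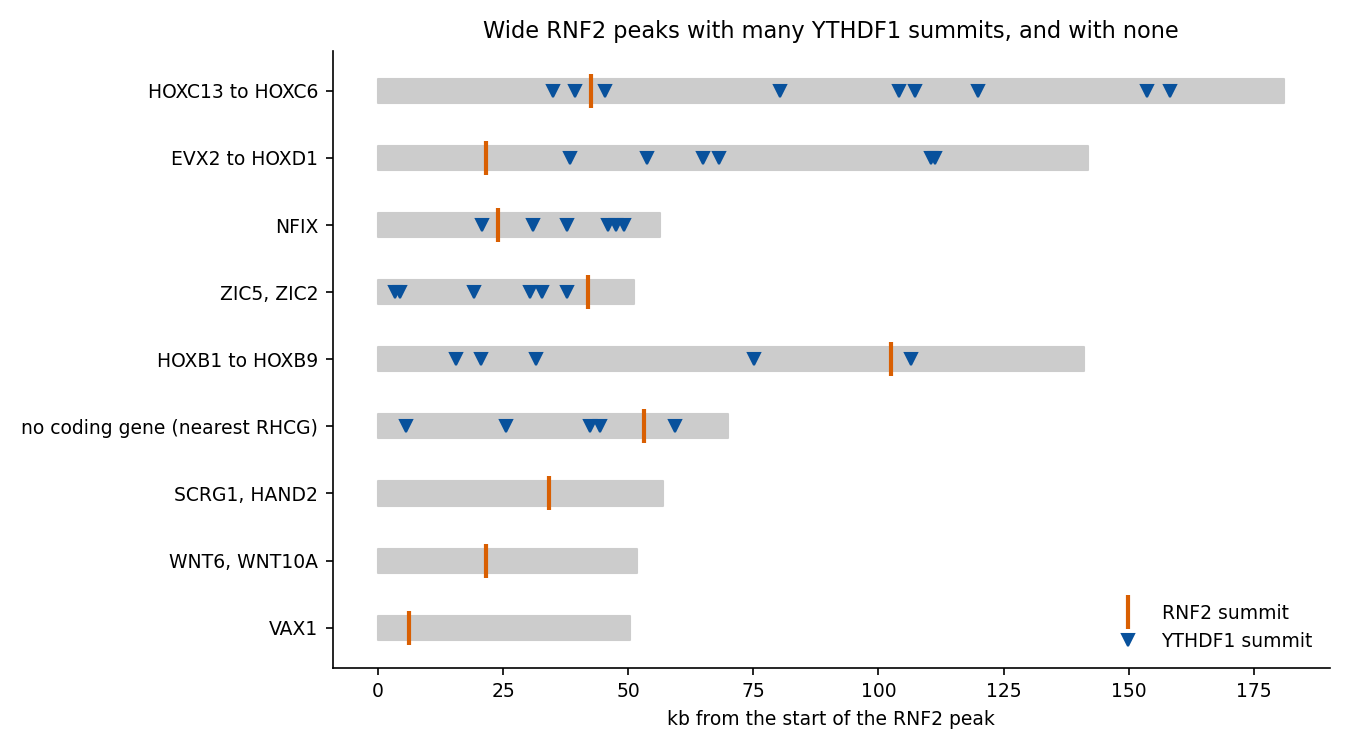
RNF2 peaks as grey bars from their lower-coordinate start (kb), with YTHDF1 summits (triangles) and the RNF2 summit (upright line). The upper 6 are among the peaks with the most YTHDF1 summits, 5 to 9 each, and the lower 3 are among the widest that hold none. The peak labelled HOXC13 to HOXC6 also covers HOXC5 and HOXC4. A nearest gene is the one nearest to the RNF2 summit.

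By −log10 p, the 4 strongest shared sites near gene ends were at BMP4, EGR1, ACAP2 and RAB36. With EGR4 and SOX1, which were among the 2 strongest of their RNF2 width classes, they lay in RNF2 peaks of 1.17 to 34.3 kb. Their distances from the RNF2 summit were 44 to 2598 bp. A site away from coding genes, described below near TXN2, had a −log10 p of 21.02 against 21.01 at RAB36. BMP4, a bone morphogenetic protein gene, held the strongest YTHDF1 peak of the list, at 74.7-fold, with its summit inside the gene and 94 bp from that of a 25.1 kb RNF2 peak of 35.7-fold. The value was an outlier in a list with a median of 2.89-fold. The summit counted as near a gene end through another coding gene, LOC124903317, and not through an end of BMP4. At ACAP2, which encodes a GTPase-activating protein for ARF6, the 8.23-fold YTHDF1 summit was 44 bp from the RNF2 summit in a peak of 1.17 kb. At EGR1, an immediate early transcription factor, the 7.49-fold summit was 340 bp outside the gene and 1009 bp from the RNF2 summit in a 3.63 kb peak. Near RAB36, a small GTPase gene, a 6.02-fold summit that also lay inside RSPH14 was 193 bp from that of RNF2. At EGR4 the distance was 1859 bp in a 6.05 kb peak, and at SOX1, a neural factor, 2598 bp in a 34.3 kb domain that held 4 YTHDF1 summits.

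Inside coding genes and over 2 kb from any gene end, which leaves out the BMP4 and RAB36 summits, the strongest were at RSPH14, a radial spoke gene (5.19-fold, 149 bp from the RNF2 summit), DLG4, which encodes the synaptic scaffold PSD-95 (5.05-fold, 247 bp), FBXO46, an F-box gene (4.91-fold, 4 bp), and ZSCAN18, a zinc-finger gene (4.02-fold, 2 bp). The RSPH14 and ZSCAN18 summits also lay in a promoter window, since some starts are inside the annotated gene. Away from coding genes they were 11831 bp from TXN2, the mitochondrial thioredoxin gene (5.64-fold, 8 bp), 12067 bp from FOS (4.13-fold, 148 bp), 3358 bp from EPHX3, an epoxide hydrolase gene (4.41-fold, 105 bp) and 2005 bp from PTMS, the parathymosin gene (4.63-fold, 209 bp). RMI2, of the BLM helicase complex, had the strongest YTHDF1 peak in an RNF2 peak under 1 kb, at 5.19-fold and 43 bp from the RNF2 summit. All 8 distances inside and away from genes were under 250 bp.

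Gene groups were then counted over each gene with 2 kb either side. Of 20037 coding genes, 71.7% had an RNF2 peak there and 22.7% a YTHDF1 summit in such a peak, which is 4543 of 14368 genes with RNF2 (31.6%, 30.9 to 32.4%). Immediate early genes, which respond within minutes to growth signals, had both most often, at 20 of 27 (74.1%, 53.7 to 88.9%), all 27 having RNF2. At EGR2, ATF3, IER2 and JUNB the YTHDF1 peaks were 3.92-fold, 4.12-fold, 4.07-fold and 3.79-fold in RNF2 peaks of 5.83 to 7.70 kb, 1976, 960, 3651 and 2474 bp from the RNF2 summit. At FOS and FOSL1 the distances were 44 and 9 bp, so that distances in this group ran from a few bases to several kb. With a −log10 q of at least 4, 9 of the 27 were left (33.3%, 16.5 to 54.0%), against 503 of 14368 (3.50%, 3.21 to 3.81%). Their median gene length was 4.50 kb, against 24.1 kb over all coding genes, so their windows were shorter.

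Developmental groups had RNF2 at nearly every member and YTHDF1 in it at 44.7 to 51.3%. HOX genes had 20 of 39 (51.3%, 34.8 to 67.6%), and neighbours in a cluster share peaks, so they are not separate units. HOXB1 (4.07-fold) had the strongest, and HOXB3 (3.37-fold) tied with another HOX gene for the next; their summits were 86929 and 27257 bp from the RNF2 summit of their common 141.1 kb domain. Lineage transcription factors had 29 of 64 (45.3%, 32.8 to 58.3%), led by SOX1 (4.35-fold) and IRX5, a homeobox gene (3.93-fold, 4384 bp from the RNF2 summit in a 22.7 kb domain). Developmental signalling genes had 17 of 38 (44.7%, 28.6 to 61.7%), led by BMP4 and by GDF6, another ligand of that family (3.78-fold, 12444 bp, 38.9 kb domain). At a −log10 q of at least 4 these groups had 1, 3 and 2 genes, or 2.56%, 4.69% and 5.26%, near the 3.50% of all genes with RNF2.

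The machinery itself stood near the level of all genes. Genes of PRC1 and PRC2 subunits had a YTHDF1 summit in RNF2 at 15 of 38 with RNF2 (39.5%, 24.0 to 56.6%), among them JARID2, a PRC2 subunit gene (3.41-fold, 263 bp from the RNF2 summit). Genes of the N6-methyladenosine machinery had 7 of 18 (38.9%, 17.3 to 64.3%), including the demethylase genes FTO (3.79-fold, 305 bp) and ALKBH5 (3.53-fold, 1170 bp). Median gene length was 52.8 kb for the PRC1 and PRC2 group and 39.7 kb for the methyladenosine group, against 24.1 kb over all coding genes. Their windows were thus longer. At the YTHDF1 gene a 2.72-fold YTHDF1 summit lay 249 bp from the RNF2 summit. Pluripotency genes had 6 of 16 (37.5%, 15.2 to 64.6%), led by KLF4 (3.93-fold, 749 bp), which was also in the immediate early group, and ETV4 (3.52-fold, 28 bp).

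Ribosomal protein genes, which are highly transcribed in all cells, had 7 of 49 (14.3%, 5.94 to 27.2%), below the interval of all genes with RNF2, and their median length was 5.02 kb. The strongest were RPL38 (3.45-fold, 98 bp) and RPL13 (3.17-fold, 544 bp), in RNF2 peaks of 1.12 and 1.62 kb, and at a −log10 q of at least 4 there were 0 of 49, which the exact interval bounds at 7.25%. Genes of differentiated tissues had RNF2 at 17 of 36 and YTHDF1 in it at 3 (17.6%, 3.80 to 43.4%): SFTPC, the lung surfactant gene (4.07-fold), GFAP, an astrocyte filament gene (2.94-fold), and CD8A, a T-cell coreceptor gene (2.94-fold). With groups of this size most intervals took in the share of all genes, and the exceptions were the immediate early, lineage factor and ribosomal groups. The groups were not matched to all genes for RNF2 width or for gene length, whose median was 3.785 kb for HOX genes and 6.01 kb for lineage factors. Apart from PAX5, every lineage factor with both had its strongest summit in an RNF2 peak of 10 kb and over. In that width class 51.9% of all RNF2 peaks held a YTHDF1 summit. The HOX interval is not read this way, since its genes share peaks.

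H2AK119ub, the mark written by PRC1, lay on RNF2 peaks with a YTHDF1 summit more often than on those without in the 3 classes under 10 kb, and the gap was widest in the narrowest class. Under 1 kb an H2AK119ub island overlapped 84.1% (80.9 to 86.9%) of RNF2 peaks with a summit and 68.9% (68.0 to 69.8%) without. At 1 to 3 kb the shares were 98.0% (97.3 to 98.5%) and 90.6% (90.1 to 91.2%), and at 3 to 10 kb 99.7% (99.3 to 99.9%) and 97.7% (97.1 to 98.2%). At 10 kb and over all 369 with and all 342 without lay on an island. RNF2 peaks with a summit were wider and stronger even within a class, with medians of 787 against 606 bp and 3.38-fold against 3.11-fold under 1 kb, and the part of this in the result was not tested.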

How the data were processed

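Peak lists from ChIP-seq were used. Replicates had been merged into 1 list per group by the authors, per the series' design text. The submitters' processing notes name hg38, SICER 1.1 and MACS2 2.1.0, and for earlier steps Picard, SAMtools 1.3.1, Bowtie2 2.2.5 and Trimmomatic 0.35; which tool did what, and with which settings, is not given in the sources used here. Each deposited list of YTHDF1 or RNF2 gave for every peak a fold enrichment (a ratio), a −log10 p, a −log10 q and a summit. These values were used within a list, apart from 1 common −log10 q minimum for both YTHDF1 lists. The lowest −log10 q was 1.50 for YTHDF1 and 4.01 for RNF2. From the H2AK119ub list only the islands' coordinates were used. The depth of each sample is unknown.

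A YTHDF1 peak was inside RNF2 when its summit was (start plus offset, written 1-based). Coding genes and starts came from RefSeq tables of GRCh38.p14. Python 3.11.15, pandas 2.3.3 and scipy 1.17.1 were used, and the counting code was tested on simulated data. Members, gene lists and the naming rule were chosen with earlier results of these data known. The rule took the 8 RNF2 peaks with the most summits, the 4 strongest YTHDF1 peaks by −log10 p in each class of position, the 2 strongest in each width class and gene list, and the 4 widest RNF2 peaks without a summit. EGR2, ATF3, IER2, JUNB, FOS, FOSL1, CD8A, the YTHDF1 gene and the printed promoters were chosen after their values were seen. Some domains and genes the rule took are not reported here. Of the listed symbols, 1 pluripotency gene and 1 gene of the methyladenosine machinery matched no coding gene. Alternatives were other overlap rules, midpoints, stricter thresholds, merged RNF2 peaks, autosomes and other gene-end windows.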

Additional observations from a re-analysis of the deposited data

How the results depend on the processing

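Of the recomputed values, 85 stayed close to the main value (shares and medians within its interval, gene counts within 1.5 times) and 45 moved. The ratio of densities, 1 to 3 kb over 10 kb and over, was above 1 in all 9 settings and moved to 3.77, 5.92 and 3.42 with a YTHDF1 −log10 q of at least 2, of at least 4, and the better-scoring 50% of RNF2 peaks. In the last the densest class changed from 1 to 3 kb to under 1 kb (0.173 per kb against 0.130). In those 3 settings the share of YTHDF1 summits in RNF2 was 16.9%, 42.5% and 9.49%, of RNF2 peaks with a summit 9.19%, 1.52% and 25.3%, and of shared summits near gene ends 65.7%, 72.1% and 65.2%, while the median distance was 299.5, 231 and 397 bp. The first 2 settings gave 30.3% and 33.0% in the middle 20% and a median fold enrichment of 3.23 and 3.92. An overlap of at least 1 bp gave 12.7% of YTHDF1 peaks, 17.3% of RNF2 peaks, 27.3% in the middle and 357 bp, midpoints gave 30.2% in the middle and 320 bp, and merging RNF2 peaks within 1 kb gave 19.0% of RNF2 peaks and 383 bp. Gene-end windows of 500 bp and 5 kb gave 42.3% and 72.3% near ends. Under the first setting the genes with both were 10 HOX, 18 lineage factor, 10 signalling, 3 pluripotency, 2 methyladenosine and 4 ribosomal genes. Under the second they were 1, 3, 2, 1, 1 and 0, with 1 PRC1 or PRC2, 9 immediate early and 1 differentiated-tissue gene, and the HOX share of 2.56% and PRC1 and PRC2 share of 2.63% were then below the 3.50% of all genes with RNF2, where they had been above it. The better-scoring RNF2 peaks left 4 ribosomal genes. No paired analysis was possible because the authors merged the replicates of each group, and no replicate could be left out. Without read depth, a site without a YTHDF1 peak cannot be called unbound.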

Other observations

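Chromosomes X and Y stood apart from the autosomes in the YTHDF1 list. Chromosome Y held 3 YTHDF1 peaks (0.0525 per Mb) and 7 RNF2 peaks (0.122 per Mb), with 0 YTHDF1 summits in RNF2. Chromosome X held 93 YTHDF1 peaks, or 0.596 per Mb, where the 22 autosomes had 10.5 to 27.0 per Mb. RNF2 peaks were fewer on X too, at 421 or 2.70 per Mb against 5.36 to 31.7 on the autosomes. Of the X-linked RNF2 peaks 11 (2.61%) held a YTHDF1 summit, against 11.4 to 25.9% on the autosomes. The median fold enrichment of the peaks that were called on X was 2.94 for YTHDF1 and 3.82 for RNF2.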
